A study of Mus musculus with 2 samples.

Results

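The 7 genes described here, Snrpn, Snurf, Ndn, Magel2, Mkrn3, Ube3a and Snhg14, are genes of the imprinted Snrpn-Ube3a locus on mouse chromosome 7. They were taken by symbol from the 55536 genes of the GENCODE M21 annotation and hold 39 annotated transcripts among them. Their levels were read from total RNA of the left cerebral cortex in 2 libraries from females of B6CASTF1/J aged 14 days, a cross of C57BL/6J with CAST/EiJ in its first generation. The libraries are labelled replicate 1 and replicate 2. Each library was made from 300 ng of RNA after depletion of ribosomal RNA, with ERCC spike-ins added and strand information kept, per the labels. Both belong to 1 group, with no treatment and no mutant. The description of both names 3 females, 1 tissue label repeats that number and the other names a single numbered female, so pooling of mice is unsettled. Reads were not divided by parental allele in the tables, so the allele of origin was not measured.

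Genomic imprinting marks a gene in the germ line so that 1 parental copy is silent in the offspring. At this locus Snrpn, Snurf, Snhg14, Ndn, Magel2 and Mkrn3 are known to be read from the paternal chromosome, and loss of the paternal copies in humans causes Prader-Willi syndrome. Ube3a is read mainly from the maternal chromosome in neurons, where the paternal Snhg14 transcript runs through Ube3a on the other strand and silences that copy. Loss of the maternal copy of UBE3A in humans causes Angelman syndrome.

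In mm10 coordinates, Ube3a (ENSMUSG00000025326.12) lies at chr7:59228750-59311536 on the plus strand, followed on the minus strand by Snhg14 (ENSMUSG00000100826.6) at chr7:59307924-59975759 and Snrpn (ENSMUSG00000102252.5) at chr7:59982495-60140219. Farther along are Ndn (ENSMUSG00000033585.5) at chr7:62346569-62350262 and Magel2 (ENSMUSG00000056972.6) at chr7:62377010-62381640, both on the plus strand, and Mkrn3 (ENSMUSG00000070527.3) at chr7:62417593-62420139 on the minus strand. Snurf (ENSMUSG00000102627.1) lies inside Snrpn.

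Snrpn encodes SmN, a Sm protein of neuronal spliceosomal particles, and Snurf is an upstream reading frame of the same messenger RNA. The Snurf transcript of the annotation, Snurf-201, is that reading frame alone. It has 216 bases in 3 exons of 14, 96 and 106 bases between chr7:59995449-60005049 on the minus strand (mm10). It is shown because it lies whole inside Snrpn-201 and its count differs between the quantifications. Capitals mark the 10 bases at its 5′ end that Snrpn-202 lacks; all 216 bases lie in Snrpn-201.
Snurf-201: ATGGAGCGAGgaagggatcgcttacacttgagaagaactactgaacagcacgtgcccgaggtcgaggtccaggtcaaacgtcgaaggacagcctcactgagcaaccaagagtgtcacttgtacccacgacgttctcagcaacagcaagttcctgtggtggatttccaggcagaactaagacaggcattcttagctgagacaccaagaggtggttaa

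Snrpn has a proximal and an upstream start. Snrpn-201 (1932 bases, chr7:59982495-60005111) begins at the proximal exon, which also opens Snurf-201. Snrpn-202 (2076 bases, chr7:59982502-60140219) replaces that exon with exons of 79 and 148 bases far upstream and shares the rest. Both encode the same length of 240 residues. Promoter windows of RefSeq (GRCm38.p6) at the starts are shown because the quantifications below place the Snrpn reads at different starts; the upstream window was trimmed to end before the first base of Snrpn-202, and the proximal window ends before that of Snrpn-201. Capitals mark the longest run of letters found in both windows, ACGCATGCGT, which reads the same on both strands.
Proximal promoter, chr7:60005150-60005449, minus strand: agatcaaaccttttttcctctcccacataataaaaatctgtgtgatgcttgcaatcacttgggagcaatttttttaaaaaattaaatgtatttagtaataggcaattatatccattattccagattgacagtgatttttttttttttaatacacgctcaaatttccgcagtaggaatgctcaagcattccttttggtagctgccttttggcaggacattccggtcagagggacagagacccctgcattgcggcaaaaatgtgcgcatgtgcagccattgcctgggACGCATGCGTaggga
Upstream promoter, chr7:60140220-60140475, minus strand: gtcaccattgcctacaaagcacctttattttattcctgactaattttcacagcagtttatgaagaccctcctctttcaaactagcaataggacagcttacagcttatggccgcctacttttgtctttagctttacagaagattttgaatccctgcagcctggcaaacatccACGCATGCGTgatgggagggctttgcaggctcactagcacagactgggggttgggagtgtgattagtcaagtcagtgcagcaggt

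The run occurred in 4 of the 8 distinct promoter windows of the 7 genes, all 4 of them starts of Snrpn, 1 of these shared with Snhg14 and 1 with Snurf. Of the 4, 2 are the windows that defined the run, so their match was fixed. It occurred in 33 of 32817 windows of the whole promoter table, 0.101%. The windows differed in CG dinucleotides. Ube3a had 29 in its 300 bases, Mkrn3 had 15, Ndn had 11 and Magel2 had 10. The proximal Snrpn window had 7, which is also the median of all windows, and the 3 upstream windows had between 2 and 4. These letters describe the sequence and show no binding.

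Snurf had the highest and Magel2 the lowest level of the 7 genes in the gene tables, on the TPM scale (counts divided by effective length and scaled to a fixed total per table). In the gene tables, made from a transcriptome alignment, Snurf had 1269 TPM in replicate 1 and 1292 TPM in replicate 2. Snhg14, the long noncoding host transcript, had 510.6 and 549 TPM. Snrpn followed with 466 and 442 TPM. These were among the highest levels of the cortex tables, at ranks 32 and 30 for Snurf, 118 and 108 for Snhg14, and 135 and 145 for Snrpn among 55536 genes.

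Ndn, which encodes the MAGE protein necdin, had 70.4 and 78.6 TPM in replicate 1 and replicate 2. Ube3a, an E3 ubiquitin ligase, had 60.4 and 62.5 TPM. Mkrn3, a makorin RING finger protein known as a brake on puberty, had 7.67 and 7.20 TPM, and Magel2, a MAGE protein of the retromer-WASH pathway, had 0.70 and 1.47 TPM. In the order Snurf, Snhg14, Snrpn, Ndn, Ube3a, Mkrn3, Magel2, no gene's libraries overlapped those of its neighbour. The closest neighbours were Snhg14 and Snrpn, whose means were 530 ± 27.2 and 454 ± 16.9 TPM (SD, n = 2), and Ndn and Ube3a, at 74.5 ± 5.75 and 61.5 ± 1.49 TPM. No exact test over 2 libraries can give a p under 0.5, so the order is a description.

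**Figure D1:**
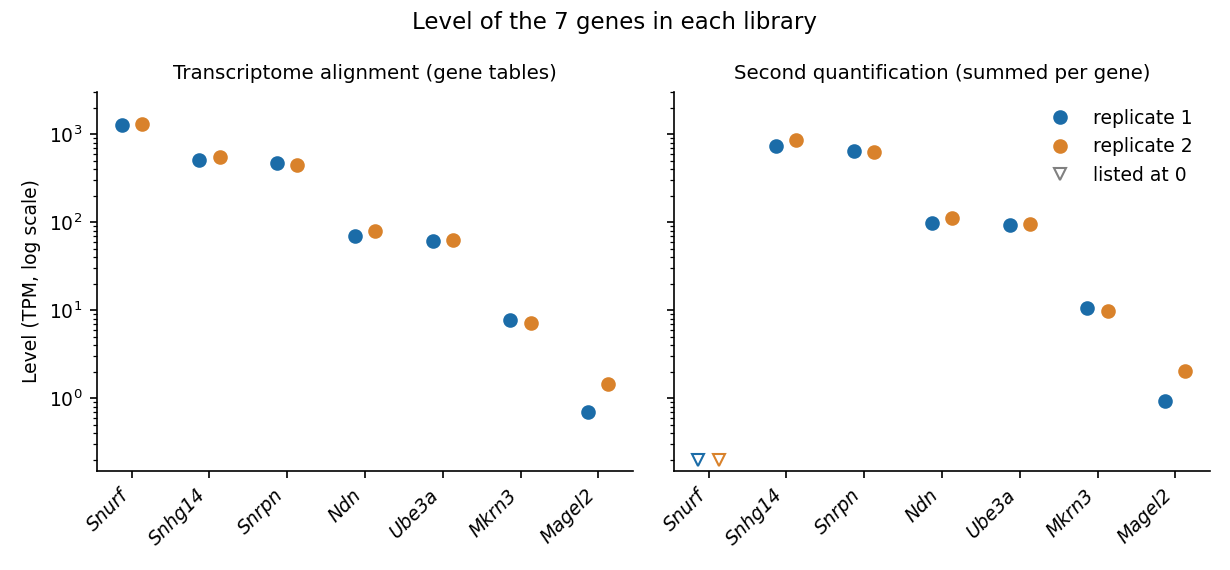
Level of each gene in TPM on a log axis, in replicate 1 (left point) and replicate 2 (right point), for the gene tables and for the second quantification summed per gene. Snurf is the highest gene on the left, at 1269 and 1292 TPM, and is listed at 0 on the right; the other 6 keep their order.

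The second quantification, a transcript table made from the reads, ranked the other 6 genes in the same order and listed Snurf at 0 TPM and 0 counts in both libraries. Snhg14 had 733 and 846 TPM there, and Snrpn had 641 and 620 TPM. Ndn had 98.7 and 112 TPM, Ube3a had 92.5 and 96.2 TPM, Mkrn3 had 10.7 and 9.84 TPM, and Magel2 had 0.93 and 2.03 TPM. TPM of all genes depends on the table's total, so these are not compared gene by gene with the gene tables; counts are.

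The counts of Snurf also differed between the quantifications. The gene table gave Snrpn 18398 expected counts in replicate 1 and 16712 in replicate 2. It gave Snurf 3187 and 3106, with a posterior SD of 31.4 and 30.6 counts in the authors' table. Snurf thus took 14.8% of the summed counts in replicate 1 and 15.7% in replicate 2, 15.2% ± 0.64 (SD, n = 2). Although Snrpn had 5.77 and 5.38 times the counts of Snurf, Snurf had 2.72 and 2.92 times the TPM of Snrpn, because its effective length in that table was 117 bases.

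In the second quantification Snrpn had 19316 and 17656 estimated counts and Snurf had 0 in both libraries. The summed counts of the pair were 21585 and 19819 in the gene tables, 1.12 times the second sums in both libraries. Gm38393, an overlapping gene on the same strand (chr7:59974149-60005064), had 1967 and 2238 counts in the gene tables and 2383 and 2700 counts in the second tables. Over all 3 genes the gene tables held 1.09 and 1.08 times the second counts. The sums over the 3 genes thus differed between the quantifications, and no read was followed from the gene tables to the second tables. Snrpn had 0.952 and 0.947 times its second counts in the gene tables, near the 0.946 and 0.939 of Ndn, which lies outside this overlap.

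**Figure D2:**
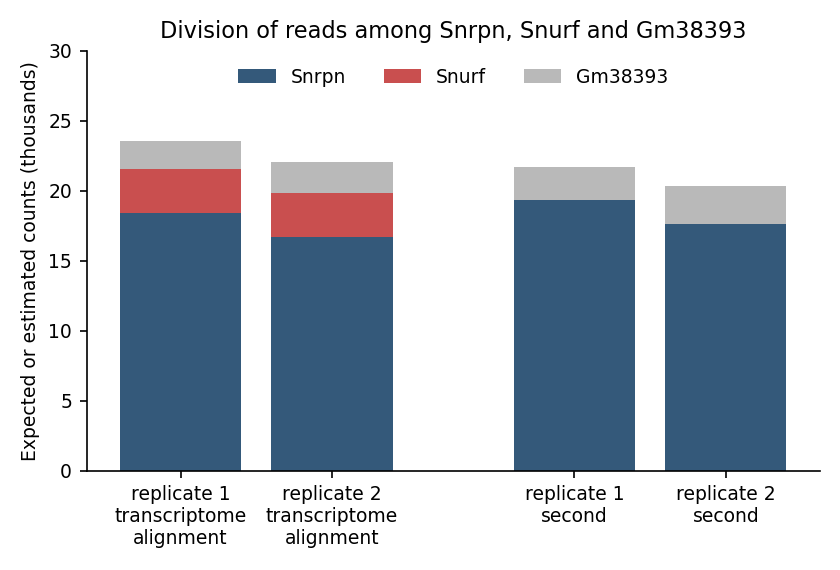
Expected counts (gene tables, left pair) or estimated counts (second tables, right pair) in units of 1000, stacked as Snrpn, Snurf and Gm38393 for replicate 1 and replicate 2. Snurf holds 3187 and 3106 counts on the left and none on the right.

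All of the 192 words of 25 bases in Snurf-201 also occurred in Snrpn and in Gm38393. Of these words, 94 also occurred in Gm35595, a processed pseudogene on chromosome 14 with 3 and 10 counts. The share stayed 100% for words of 50 and 75 bases. No read of those lengths from Snurf-201 is therefore unique to it, and its counts are a model's estimate in either table. Of the 1908 words of Snrpn-201, 47 occurred in no other transcript, and of the 2052 of Snrpn-202, 223 did so. The Snrpn words included 256 also found in the pseudogene Gm5802, which had 51.1 and 33.1 counts, and 12 also found in Snrpb, its closest relative among the Sm genes. Snurf-201, at 216 bases, is shorter than the gap of 341 and 347 bases between length and effective length in the second tables. Among the 68 transcripts of up to 300 bases with 100 counts or more in both first transcript tables, 65 were listed at 0 in both second tables (95.6%), against 208 of 17872 transcripts over 1000 bases (1.16%). Why Snurf was listed at 0 in the second tables was not tested.

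The start of Snrpn also differed between the tables. Snrpn-201, from the proximal start shown above, held 96.4% of the Snrpn TPM in replicate 1 and 96.3% in replicate 2 in the first tables, with 17680 and 16046 counts. Snrpn-202, from the upstream start, had 718 and 667 counts there. In the second tables Snrpn-202 held 99.96% and 99.92% of the TPM, with 19310 and 17643 counts, and Snrpn-201 had 6.67 and 12.8 counts. The libraries were alike within each quantification, and the leading transcript was the opposite one between them. Which start the cortex used is not given by these tables.

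Snhg14 is annotated here as 15 transcripts on the strand opposite to Ube3a, over chr7:59307924-59975759. Of these only Snhg14-213 reaches into Ube3a. Snhg14 hosts small nucleolar RNAs (snoRNAs) in its introns. The 208 snoRNA entries within its span, between 69 and 94 bases long, were all listed at 0 in every table. Their effective length in the first tables was 0, so a level for them cannot be read from these files. All but 1 of them lay outside the Snhg14 exons.

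The transcripts fall into 5 blocks that do not overlap, so the gene's TPM adds up separate stretches of 1 long host and is not a number of molecules. Counted from the Snrpn-201 start, the first block (29.4 to 67.7 kb downstream) had 44.3 and 51.0 TPM in replicate 1 and replicate 2. The second (100.4 to 386 kb) had 350.1 and 351 TPM, most of it in Snhg14-203 at 259 and 257 TPM. Snhg14-208, at about 552 kb, had 68.8 and 87.1 TPM, and Snhg14-210, at about 594 kb, had 42.1 and 52.5 TPM. The last block, Snhg14-213 with Snhg14-212, 681 to 697 kb downstream and next to the Ube3a end, had 5.24 and 7.20 TPM, or 1.03% and 1.31% of the gene's TPM.

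The antisense strand within and beside Ube3a is annotated as separate genes of unproven coding status. Gm44560 (chr7:59286052-59289166) had 3.28 TPM in replicate 1 and 5.39 TPM in replicate 2. 9330162G02Rik (chr7:59223847-59254788), which runs past the Ube3a start, had 2.43 and 3.21 TPM. These levels were near those of the last Snhg14 block and far under the block around Snhg14-203.

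**Figure D3:**
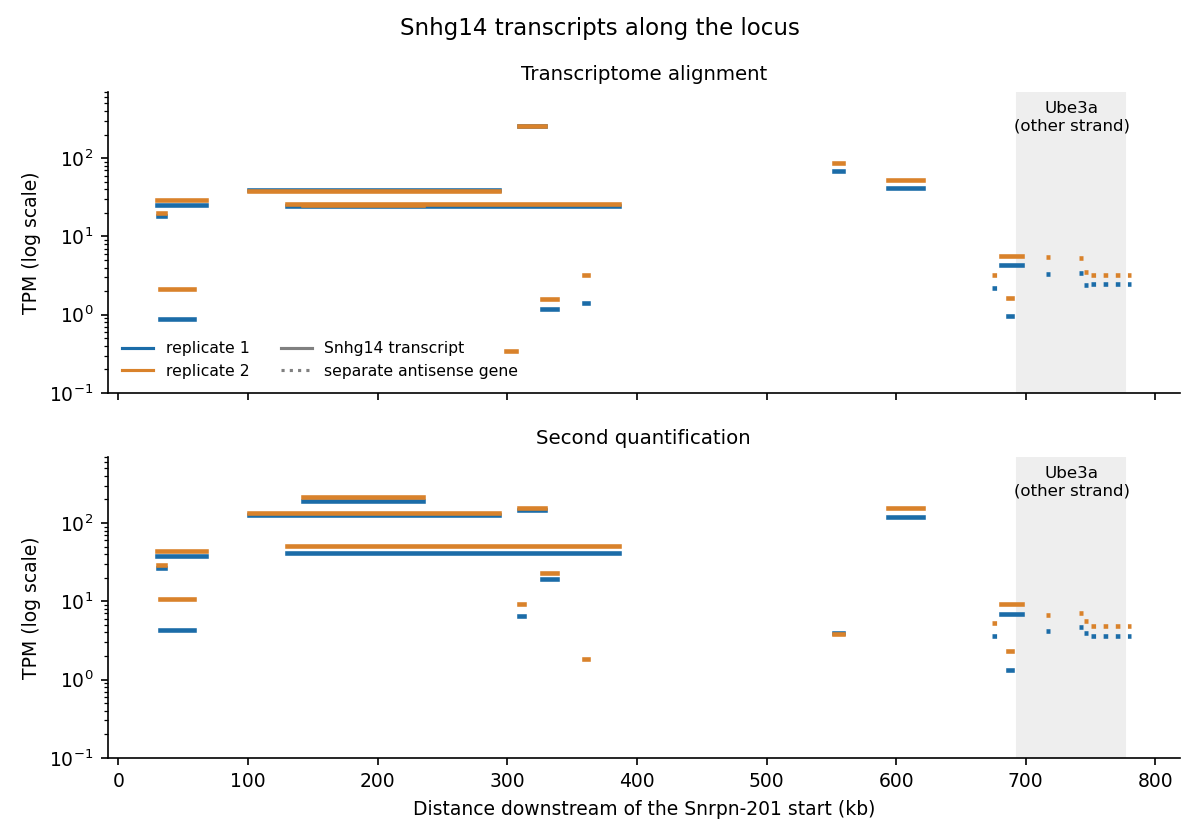
TPM (log axis) of each Snhg14 transcript drawn over its span as distance downstream of the Snrpn-201 start in kb, for replicate 1 and replicate 2, in the first tables above and the second tables below. Dotted segments are separate antisense genes, the grey area is Ube3a on the other strand, and values under 0.1 TPM are not drawn; the block next to Ube3a lies at 5.24 and 7.20 TPM in the first tables, against 350.1 and 351 TPM for the block around Snhg14-203.

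Within Snhg14 the quantifications also divided reads differently. The gene had 12570 and 13321 counts in the gene tables and 18836 and 20721 in the second tables, a ratio of 0.667 and 0.643, whereas Ndn, Magel2, Mkrn3, Ube3a and Snrpn had ratios between 0.939 and 1.01. In the block around Snhg14-203 the first tables held 0.520 and 0.468 times the second counts, and in the first and last blocks between 0.839 and 0.859 times. Snhg14-203 held 50.7% and 46.8% of the gene's TPM in the first tables and 19.9% and 18.3% in the second, where Snhg14-206 led with 26.1% and 25.5%. Snhg14-208 had 868 and 1052 counts in the first tables and 23.4 and 21.4 in the second, and Snhg14-210 had 1309 and 1565 against 2536 and 3105.

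Some of these transcripts hold repeated exons. The annotation held 13 exons of 147 bases in 6 Snhg14 transcripts, with a median identity of 96.6% between pairs (93.2% to 100%). It also held 9 exons of 123 bases, with a median identity of 93.5% (67.5% to 98.4%). Copies from several of these transcripts are shown, because the quantifications divided reads among transcripts that hold them; Snhg14-206 holds none of either length. Capitals mark bases that differ from the commonest base at that position among exons of the same length. The first 147-base copy has none, and the same letters form an exon of Snhg14-205, which had 0 and 2.47 counts in the first tables.
Snhg14-203, chr7:59683936-59684082: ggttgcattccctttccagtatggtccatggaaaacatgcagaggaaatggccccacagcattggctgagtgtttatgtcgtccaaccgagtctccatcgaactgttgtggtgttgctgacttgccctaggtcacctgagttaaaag
Snhg14-203, chr7:59681404-59681550: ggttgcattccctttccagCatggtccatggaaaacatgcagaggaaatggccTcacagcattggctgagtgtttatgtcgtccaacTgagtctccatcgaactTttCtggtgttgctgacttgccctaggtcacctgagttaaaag
Snhg14-207, chr7:59711359-59711505: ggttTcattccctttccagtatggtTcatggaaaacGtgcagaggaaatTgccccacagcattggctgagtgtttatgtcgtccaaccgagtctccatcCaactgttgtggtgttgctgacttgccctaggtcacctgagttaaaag
Snhg14-203, chr7:59678859-59679005: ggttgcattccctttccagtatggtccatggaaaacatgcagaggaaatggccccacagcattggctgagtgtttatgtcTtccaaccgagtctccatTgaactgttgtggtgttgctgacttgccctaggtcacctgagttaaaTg
Snhg14-208, chr7:59451256-59451378: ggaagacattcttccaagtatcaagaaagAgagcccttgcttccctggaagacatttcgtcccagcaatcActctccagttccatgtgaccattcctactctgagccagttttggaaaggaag
Snhg14-210, chr7:59388094-59388216: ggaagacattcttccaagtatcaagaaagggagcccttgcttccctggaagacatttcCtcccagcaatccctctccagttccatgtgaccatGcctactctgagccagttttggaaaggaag

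The Ube3a levels rested on 18 transcripts, 11 of which had counts in both libraries. Ube3a-203 (9856 bases, encoding 870 residues) held 82.2% and 82.6% of the gene's expected counts in the first tables. Ube3a-201, which encodes 849 residues and has a shorter 3′ end, had 624 and 681 counts, against 5112 and 5330 for Ube3a-203. On the TPM scale, which divides by length, Ube3a-203 held 40.4% and 42.5%. On the gene level Ube3a had 0.118 and 0.114 times the TPM of Snhg14 in the gene tables (0.126 and 0.114 in the second), but 11.5 and 8.68 times that of the last Snhg14 block. Short transcripts took much of the remainder, among them Ube3a-211 (579 bases) with 16.8% and 20.9% of the TPM from 105 and 129 counts. In the second tables Ube3a-211 led with 35.2% and 38.1% of the TPM, from 135 and 142 counts, and Ube3a-203 held 32.5% and 34.4%. The count shares of Ube3a-203 were 76.9% and 77.6% there, so that the long transcript carried most Ube3a reads in both quantifications. Ube3a-201 had 1113 and 1172 counts in the second tables. All 4885 of its 25-base words also occurred in other Ube3a transcripts, so its counts are an estimate in either table.

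The only exon overlap between Ube3a and Snhg14 was between Ube3a-203 and Snhg14-213, over 1803 bases on opposite strands (chr7:59307924-59309726). This held 18.1% of the 25-base words of Ube3a-203 and 48.3% of those of Snhg14-213. Ube3a-203 had 24.4 and 26.6 TPM, 5.72 and 4.76 times the 4.27 and 5.58 TPM of Snhg14-213. The strand setting of the counting was unknown, so reads of this stretch may be divided between both genes.

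**Figure D4:**
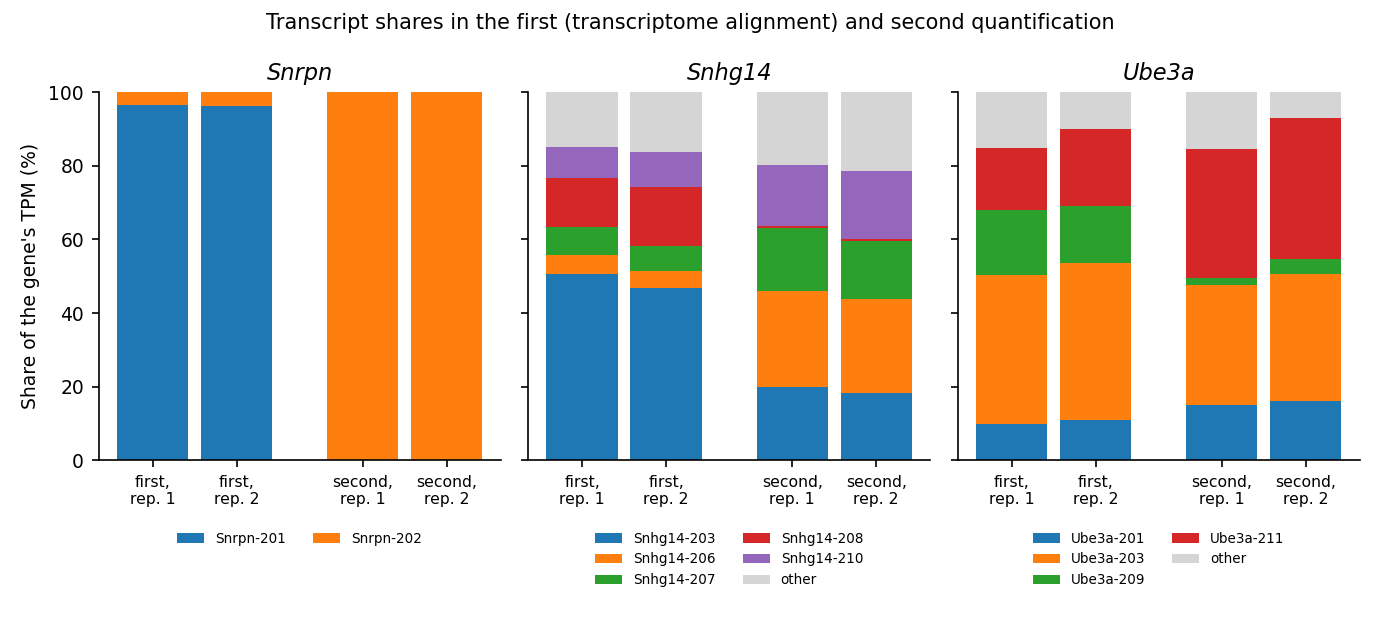
Share of the gene's TPM in percent held by each transcript of Snrpn, Snhg14 and Ube3a, with replicate 1 left of replicate 2 in the first and in the second tables; transcripts that reach 8% nowhere are grey. Snrpn-201 holds 96.4% and 96.3% in the first tables, where Snrpn-202 holds nearly all in the second.

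Set beside the genes they work with, Snrpn stood out among the Sm core proteins. All 8 measured Sm genes were at 1 TPM or more. In the gene tables the next highest was Snrpb, which encodes SmB, at 47.2 and 48.7 TPM in replicate 1 and replicate 2. In the second tables Snrpb had 70.42 and 75.04 TPM and Snrpe had 67.12 and 76.92 TPM. Snrpn alone had 9.88 and 9.08 times the TPM of Snrpb in the gene tables, and 9.10 and 8.26 times in the second. With Snurf added, the gene tables gave 36.8 and 35.6 times, while the second tables are unchanged since Snurf is at 0 there. Snurf-201 lies whole inside Snrpn-201, and its TPM rests on an effective length of 117 bases. The ratio with Snurf added therefore depends on how Snurf is counted, and its summed TPM is not an amount of transcript.

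Among the MAGE genes, 7 of 8 reached 1 TPM in each library, all but Magel2. Maged1, the highest, had 226 and 234 TPM, Magee1 had 77.9 and 78.1 TPM, and Maged2 had 24.3 and 25.8 TPM. Ndn stood at 0.312 and 0.337 times Maged1, and at 101 and 53.5 times Magel2. The partners of the MAGEL2 ubiquitin ligase, Trim27 and Usp7, and the retromer genes were measured in 11 entries, Magel2 included, of which 10 were at 1 TPM or more. Vps29 led them with 101 TPM in replicate 1.

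Mkrn3 was the lowest of the 3 makorins. Mkrn1 had 79.5 and 76.1 TPM, 10.4 and 10.6 times Mkrn3, and Mkrn2 had 19.5 and 19.9 TPM. Ube3a had 1.47 and 1.54 times the TPM of its relative Ube3b and 0.975 and 1.00 times that of Herc2, a large ligase whose protein binds UBE3A. All 15 genes of the list of UBE3A partners and related ubiquitin ligases and all 6 reported UBE3A substrates were at 1 TPM or more. Nedd4 (139 TPM in replicate 1) and Huwe1 (123 TPM) had higher levels than Ube3a. Of the other genes of the domain, Atp10a had 2.53 and 2.79 TPM and Peg12 had 0.42 and 0.25 TPM.

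The libraries were compared gene by gene, replicate 1 over replicate 2, by exact binomial tests of the rounded counts, two-sided and with counting error alone, so a call says that the libraries differ and nothing about other mice. A gene was called at a Benjamini-Hochberg adjusted p under 0.05 over the 18887 genes that reached 10 counts in either library. Of all genes tested, 20.3% were called, 11.4% as higher in replicate 1 and 8.88% as lower. Of the 7 genes, 4 were called, 1 as higher and 3 as lower. With so high a share called among all genes, the sizes say more than the calls. In bulk tissue, fewer cells of a type and less RNA per cell cannot be told apart.

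Magel2 differed most. It had 68 counts in replicate 1 and 137 in replicate 2, a log2 ratio of -1.01 (95% exact binomial interval -1.45 to -0.58, counting error only; adjusted p = 1.93e-05), and the second tables gave -1.04. It was the only one of the 7 past 1.5-fold, which 3.7% of all genes tested passed with a call. Snrpn was higher in replicate 1, with a log2 ratio of 0.14 (0.11 to 0.17; adjusted exact binomial p = 2.49e-17). Snhg14 had -0.08 (-0.12 to -0.05) and Ndn had -0.10 (-0.15 to -0.04), at adjusted exact binomial p-values of 3.53e-05 and 0.00359. Snurf (0.04), Ube3a (-0.05) and Mkrn3 (0.15) were not called, at adjusted exact binomial p-values of 0.563, 0.123 and 0.346. Scaling by DESeq2 size factors left 4 of the 7 called (19.8% of all genes), as did the second tables (20.2%) and a filter of 1 count (12.2%). Total counts gave 5 (20.5%) and spike-in counts gave 5 (20.1%), Ube3a being the addition. When edgeR's exact test was run with the dispersion set to 0.01, 0 of the 7 were called and Magel2 had an adjusted p of 0.066. Of all genes that test called 0.964%, with 0.434% higher and 0.529% lower in replicate 1.

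The hypothalamic marker list stands beside the Magel2 difference. Of 9 hypothalamic peptide genes, 4 could be tested and 2 were called, both lower in replicate 1. Avp counts were 1 in replicate 1 against 101 in replicate 2, so that it could be tested through replicate 2 alone, and Trh counts were 30 against 152. Crh, with 127 and 161 counts, and Pomc, with 31 and 28, were not called. Gnrh1 had 1 count in each library. In the gene tables Agrp, Oxt, Hcrt and Pmch were at 0 in replicate 1 and had 1 to 6.29 counts in replicate 2. In the second tables Oxt had 3 and 11.2 counts and was not called (adjusted exact binomial p = 0.184), and Agrp, Hcrt and Pmch stayed at 0 in replicate 1. The list summed to 7.79 TPM in replicate 1 and 25.2 TPM in replicate 2. The part of hypothalamic RNA in the Magel2 value was not tested.

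The Snhg14 difference was not even along the locus. The count ratio of replicate 1 over replicate 2, after TMM scaling, was 0.914 in the block nearest Snrpn, 1.04 in the block around Snhg14-203, 0.825 in Snhg14-208, 0.836 in Snhg14-210 and 0.764 in the block next to Ube3a. The second tables gave 0.925, 0.951, 1.11, 0.827 and 0.770 for the same stretches. The 1.11 of Snhg14-208 rests on 23.4 and 21.4 counts there. The block around Snhg14-203 was higher in replicate 1 in the first tables and lower in the second. Gm44560, antisense within Ube3a, had 212 and 334 counts (adjusted exact binomial p = 3.01e-06), and 9330162G02Rik had 1608 and 2035 (adjusted exact binomial p = 4.50e-11). Both were lower in replicate 1. Gm44562 (64 and 90 counts) and Gm44559 (66 and 99 counts), also antisense within Ube3a, were not called. Of 5 noncoding genes between Snrpn and Ndn, 3 were called, all lower in replicate 1, among them A230057D06Rik with 411 and 552 counts (adjusted exact binomial p = 7.58e-05). The highest of the 5, B230209E15Rik, had 817 and 836 counts and was not called, nor was A230006K03Rik with 42 and 69. In the second tables A230006K03Rik had 159 and 264 counts and was called lower in replicate 1 (adjusted exact binomial p = 1.06e-05). These antisense and noncoding genes were chosen after their values were seen.

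**Figure D5:**
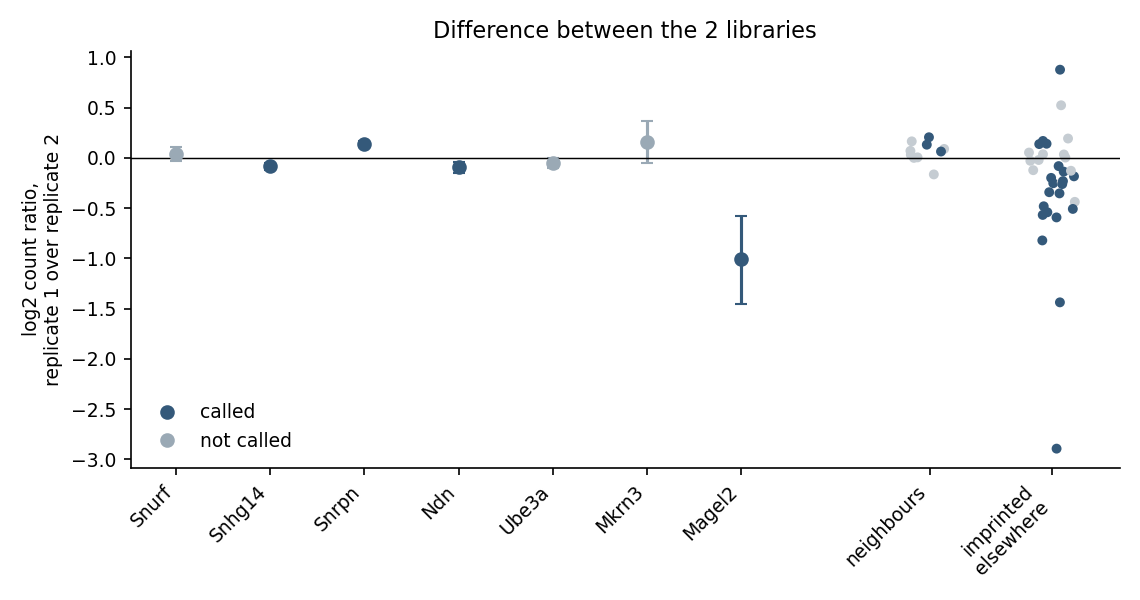
log2 count ratio of replicate 1 over replicate 2 after TMM scaling for the 7 genes, with 95% exact binomial intervals that cover counting error only, and, as points, for tested neighbours of the domain and imprinted genes elsewhere. Dark symbols were called; Magel2 lies at -1.01 and the other 6 between -0.10 and 0.15.

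The lists placed the 7 genes among others. Of 9 genes of the domain, Peg12 and Atp10a included, 1 was higher and 3 were lower in replicate 1, with a median log2 ratio of 0.04, against 0.00 over all genes tested. Of 10 neighbours outside the domain, 3 were higher and none was lower, with a median of 0.07; Gabra5 and Herc2 were among them. Of 36 imprinted genes elsewhere, 33 were tested, 4 were higher and 17 were lower, with a median of -0.18. Meg3 had 1073 TPM in replicate 1 and 1566 TPM in replicate 2, Rian had 594 and 738 TPM, and Gnas had 913 and 956 TPM. Those called at 1.5-fold or more were Nnat (-0.59), Dlk1 (-2.89), Zim1 (-0.82), Dio3 (-1.44) and Ddc (0.88).

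Counts in the remaining lists were small. Beside these and all other list counts stand the 11.4% called higher and 8.88% called lower in replicate 1 over all genes tested. In replicate 1, 1 of 8 Sm genes was higher (Snrpn itself) and none lower, 2 of 8 MAGE genes were lower (Ndn and Magel2) and none higher, and 1 of 3 makorins was higher (Mkrn1, 0.13). Of the 11 MAGEL2 complex and retromer genes 3 were higher and 2 lower. Of the 15 UBE3A partners and related ligases 4 were higher and none lower, and of 6 substrates 1 was higher (Rph3a, 0.16). Of 13 measured genes for imprinting control of the domain 1 was higher (Dnmt3a, 0.05) and 3 were lower, among them Zfp57 (-0.79), a zinc finger protein that keeps methylation at imprinted loci.

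Gene counts, in units of 1000000, summed to 33.4 in replicate 1 and 32.0 in replicate 2. Cortical neuron markers were present (10 of 10 at 1 TPM or more), summing to 3548 and 3331 TPM, with 7 higher in replicate 1 and none lower. Of 10 glial markers 7 were higher and 2 lower in replicate 1 (2082 and 1345 TPM summed), Mbp and Mog among the higher ones. Of 10 markers of vessel, meninges and choroid plexus 6 were lower and none higher in replicate 1 (510.3 and 789 TPM summed). The lower ones were Dcn, Igf2, Ttr, Folr1, Kl and Hbb-bs, with Ttr at 9.86 and 131 TPM. Folr1 had 4 counts in replicate 1 and 34 in replicate 2, so it could be tested through replicate 2 alone. Hbb-bs had 298 and 431 TPM. The vessel markers Cldn5 (log2 ratio 0.09), Pecam1 (0.19) and Rgs5 (0.07) were not called, nor was Col1a1 (-0.04). Rgs5 was called higher in replicate 1 in the second tables (adjusted exact binomial p = 0.022). The part of these neuron, glial and other markers in the differences of the 7 genes was not tested.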

How the data were processed

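Total RNA-seq of 2 libraries of 1 group was analysed. The authors deposited, per library, gene and transcript tables from alignment to the transcriptome, and another transcript table quantified from the reads, on mm10 with GENCODE M21, per the text files deposited with them. The sources used here do not give tools or strand settings. Values of some genes are not reported here. Both the expected counts and the estimated counts of the second table are unnormalised reads per feature, per the file headers. TPM values were scaled by the authors over all rows of a table. The deposited posterior SDs and lengths were used as given.

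The 7 genes and all lists were chosen with earlier results of these data known. Counts were rounded for tests. Libraries were compared with exact binomial tests (Python 3.11.15, scipy 1.17.1) and TMM sizes (edgeR 4.0.16, R 4.3.3), adjusted by Benjamini-Hochberg over all genes tested; DESeq2 1.42.0 size factors, total counts, spike-in counts, a filter of 1 count, the second table and edgeR's exact test with a dispersion of 0.01 were alternatives. Shared words were counted on the same strand in the GENCODE M21 transcripts. Numbered rows that name no gene held 5 and 4.84 counts, 1.5e-05% of the totals, and were left out. The labels call the libraries biological replicates and number their tissue samples differently, but give both the same donor entry. Differences between these samples may therefore be partly technical. The binomial p-values rest on counting error alone, and no spread between samples or mice enters them. Named were the 7 genes, pair genes, and of each list genes among the 4 highest by mean TPM or called at 1.5-fold or more; others were chosen after their values were seen. Intervals cover counting error only.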

Additional observations from a re-analysis of the deposited data

How the results depend on the processing

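Leaving out a replicate gave a Snurf share of 14.8% to 15.7%, a Snrpn-201 share of 96.3% to 96.4%, a Snhg14-203 share of 46.8% to 50.7%, and log2 ratios of 5.15 to 5.20 for Snrpn with Snurf over Snrpb and -3.13 to -3.08 for Ube3a over Snhg14. In the second tables these were 0%, 0.0585%, 19.1%, 3.12 and -3.06. By expected counts in place of TPM the transcript shares were 96.1% for Snrpn-201 and 23.9% for Snhg14-203. The log2 ratio of Ube3a over Herc2 was -0.036 without replicate 2 and reversed to 0.0058 without replicate 1. The log2 library ratio of Snurf, which was not called, reversed to -0.022 with total counts and -0.016 with spike-in counts, the settings under which Ube3a was called (adjusted exact binomial p = 0.000145 and 0.000428); they moved the median of all genes by -0.06 and -0.05. No such ratio of Snurf exists in the second tables. Snrpn, Ndn, Magel2 and Snhg14 were called under all 5 other scalings, filters and tables of counts tried with the binomial test, and 0 of the 7 genes and 182 of all genes (3830 with counting error alone) were called with a dispersion of 0.01. Taking TPM over protein-coding genes alone, 51.4% and 51.6% of the total, multiplied levels by 1.94 in both libraries. With words of 75 bases the shared part of Snrpn was 18.9% in place of 32.5%, and that of Snurf was 100% for all 3 word lengths. No paired analysis was possible because there is 1 group. Depth limits Magel2 most, with 68 and 137 counts.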
